A study of Cavia porcellus with 238 samples.

Results

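Respiration in mitochondria rests on 5 protein assemblies of the inner membrane, and nearly all of their subunits are encoded in the nucleus. The genes described here are the 82 rows of a guinea pig expression table whose symbols name subunits of these assemblies. They were picked by symbol, with earlier results of these data known. The symbols were NDUF with an A, B, C, S, V or AB1 series name, SDHA to SDHD, UQCR, CYC1, COX4 to COX8 and ATP5. These rows make up 82 of 16009 genes, or 0.512% of the table. Complex I had 37 of them (7 core and 30 accessory subunits), complex II had 4, complex III had 8, complex IV had 17 and complex V had 16. NDUFA4 was counted with complex IV, to which its protein is now assigned. Of the 82, 6 are paralogs known in mammals for use in particular tissues (COX4I2, COX6A2, COX6B2, COX7A1, COX7B2 and COX8C). A further 3 match by symbol without being subunits: ATP5S and ATP5SL, named for likeness to ATP synthase subunit s, and COX7A2L, which acts in joining complexes III and IV.

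Complex I takes electrons from NADH and complex II takes them from succinate, as an enzyme of the citric acid cycle. Both pass them through ubiquinone to complex III, then through cytochrome c to complex IV, which reduces oxygen. Complexes I, III and IV pump protons, and complex V, the ATP synthase, makes ATP from the proton gradient. The mitochondrial genome encodes at least a single subunit of each assembly except complex II, so nuclear and mitochondrial products have to be joined. Heart muscle and the kidney tubule are known as tissues dense in mitochondria, and the sperm cell is known for complex IV isoforms of its own.

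The study asked how transcriptomes differ between breeders and non-breeders of either sex, and the guinea pigs were of the strain Dunkin Hartley HsdDhl:DH. Female breeders (BF) and male breeders (BM) lived as breeding pairs, and non-breeding females (NF) and non-breeding males (NM) lived in pairs of the same sex. Breeders were sampled once the females had finished their last lactation. The paper states that male partners had been removed from them around the birth of the last litter. There were 24 animals, 6 per group, and 11 tissues: adrenal gland, cerebellum, heart, hypothalamus, kidney, liver, pituitary, skin, thyroid and either ovary or testis. The animals were 0.95 to 0.97 years old except 4 males of 0.74 years, of which animals 20 and 22 were BM and animals 18 and 19 were NM.

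All but 1 of 238 poly(A)-selected RNA libraries were used, with total counts from 3551108 to 22277626 and a median of 14574216. The thyroid library of NM animal 19 was left out by the rule that chose the data. Its members' share was 0.660%, below that of every other thyroid library. No thyroid library of BF animal 12 and no pituitary library of BM animal 20 was analysed here. Reads of 50 nt were used in 9 libraries, 5 from adrenal gland and 4 from thyroid. Of 12 marker lists for the tissues, 8 were higher in each library of their own tissue than in any other library. The exceptions were the cerebellum, hypothalamus, adrenal medulla and ovary lists. In bulk tissue, fewer cells of a type and less RNA per cell cannot be told apart.

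The 82 genes took 5.48% ± 0.618 of all counts in heart (SD, n = 24), and between 0.597% and 2.31% on average in the other tissues. Heart libraries ran from 4.69% to 7.34%, with no overlap with any other tissue. Kidney followed with 2.31% ± 0.283 (1.84% to 2.81%, n = 24) and adrenal gland with 1.65% ± 0.0860 (1.48% to 1.81%, n = 24), and these ranges did not overlap either. Heart was 2.37 times kidney, and kidney was 1.40 times adrenal gland. Within animals, heart was highest, kidney the second and adrenal gland the third in 24 of 24, and the heart share was 3.79 to 6.16 times the mean of the animal's other tissues, with a median of 4.52.

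A group of 6 tissues followed whose libraries overlapped. Thyroid had 1.09% ± 0.147 (n = 22), ovary 1.07% ± 0.152 (n = 12), skin 1.03% ± 0.164 (n = 24), hypothalamus 1.03% ± 0.0862 (n = 24), liver 0.967% ± 0.108 (n = 24) and cerebellum 0.946% ± 0.0325 (n = 24). The differences between neighbours in this order were smaller than the SDs. Pituitary had 0.724% ± 0.0489 (0.629% to 0.831%, n = 23) and testis 0.597% ± 0.0178 (0.571% to 0.635%, n = 12). Testis was the lowest tissue in 12 of 12 males and pituitary in 12 of 12 females. In BM animal 20, which had no pituitary library here, testis was not compared with pituitary. The mean heart share was 9.17 times the mean testis share.

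A share of all counts depends on what else a library holds. In the median liver library 17.5% of all counts belonged to the 10 most counted genes, and in the median pituitary library 14.1%. With TMM effective library sizes as the denominator, liver was at 1.68%, above adrenal gland at 1.56%, and testis was at 0.788%, above pituitary at 0.586%. Heart stayed the highest with this denominator, at 6.63%.

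**Figure D1:**
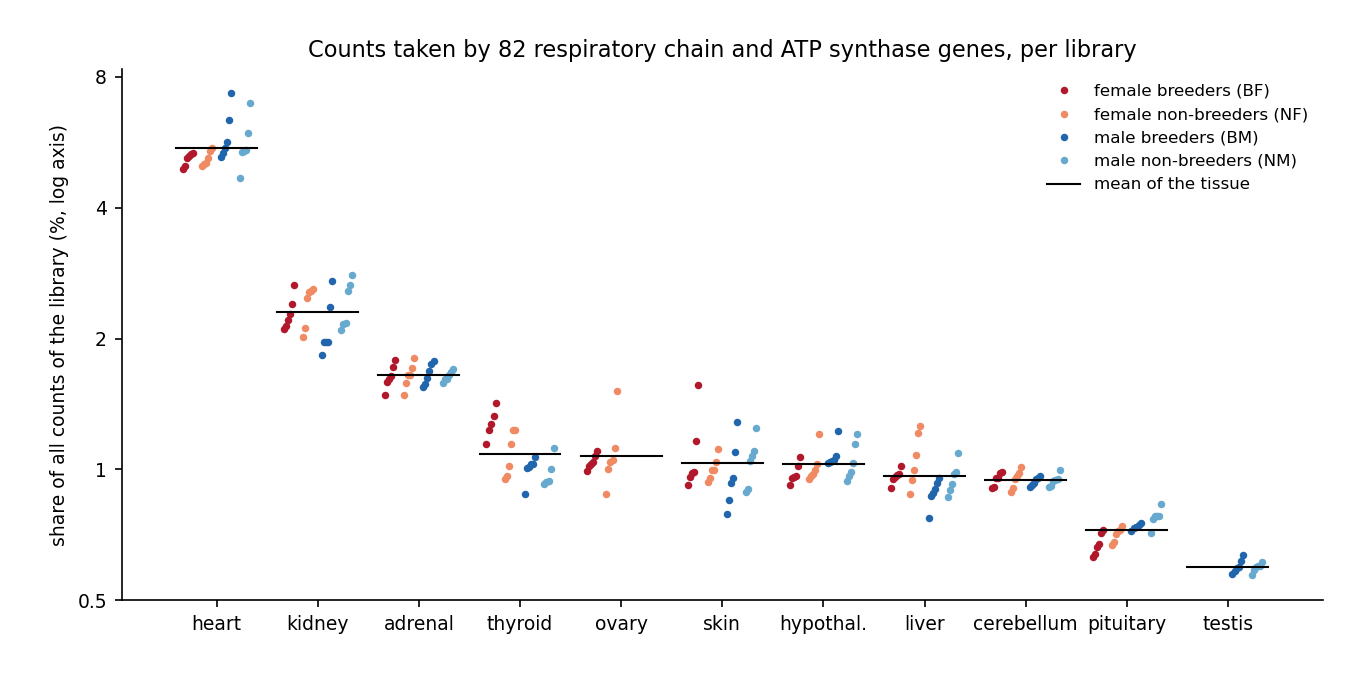
Share of all counts taken by the 82 genes (percent, log axis) in each library, by tissue in order of the mean, with BF, NF, BM and NM in 4 colours and black lines at the tissue means. Heart libraries lie between 4.69% and 7.34% and testis libraries between 0.571% and 0.635%.

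The complexes kept similar parts of the sum in most tissues, and testis stood apart. Complex I took 38.0% of the members' counts in testis, against 25.9% in heart, the lowest tissue, and up to 30.9% elsewhere. Complex III took 15.5% in testis, against 10.2% in pituitary, the lowest. The opposite held for complexes IV and V. Complex IV had 13.9% in testis and 21.1% in thyroid, and complex V had 22.8% in testis and 37.0% in heart. Complex II took 9.9% in testis, 9.0% in adrenal gland and 8.9% in liver, against 4.8% in skin. The complex I range of testis libraries (37.4% to 38.5%) overlapped with no other tissue.

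Each gene was then compared between a tissue and the mean of the 10 others, in 1 edgeR quasi-likelihood fit of all libraries. A gene was called at a Benjamini-Hochberg FDR under 0.01 over 15660 genes with an absolute log2 fold change over 1. In heart 79 of the 82 genes were higher and 1 was lower, while 17.8% of all genes were called higher. The members' median log2 fold change was 2.54 and that of all genes was -0.17. Every complex took part: 36 of 37 genes of complex I were higher (median 2.44), 4 of 4 of complex II (2.29), 8 of 8 of complex III (3.01), 15 of 17 of complex IV (2.66) and 16 of 16 of complex V (2.67).

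Leading heart genes had very different roles. COX7B, a small structural subunit of complex IV, had 683 to 1777 counts per 1000000 counts of a library (CPM) in heart with a median of 891, and its highest value in any other tissue was 491 in kidney. Its log2 fold change was 3.48 (SE 0.04, FDR 6.14e-166). UQCRB, the ubiquinone-binding protein of complex III, was at 3.43 (SE 0.04, FDR 1.22e-169). ATP5B, the catalytic beta subunit of ATP synthase, had 4543 to 6690 CPM in heart and 133 to 163 CPM in testis. Its log2 fold change in heart was 3.18 (SE 0.03, FDR 7.94e-195), and heart values overlapped with no other tissue.

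For complex II, SDHB, its iron-sulfur subunit, had 637, 764 and 1032 CPM in heart (lowest, median and highest of 24), above the 562 CPM of the highest kidney library. It was 3.07 higher on the log2 scale (SE 0.04, FDR 4.51e-173). SDHA, the flavoprotein subunit, had 681, 1332 and 1644 CPM, and the lowest heart libraries overlapped with adrenal gland. Heart genes outside the calls were COX8A, the ubiquitous form of COX8, at a log2 fold change of 0.68, and COX7B2. The gene called lower was NDUFA1.

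**Figure D2:**
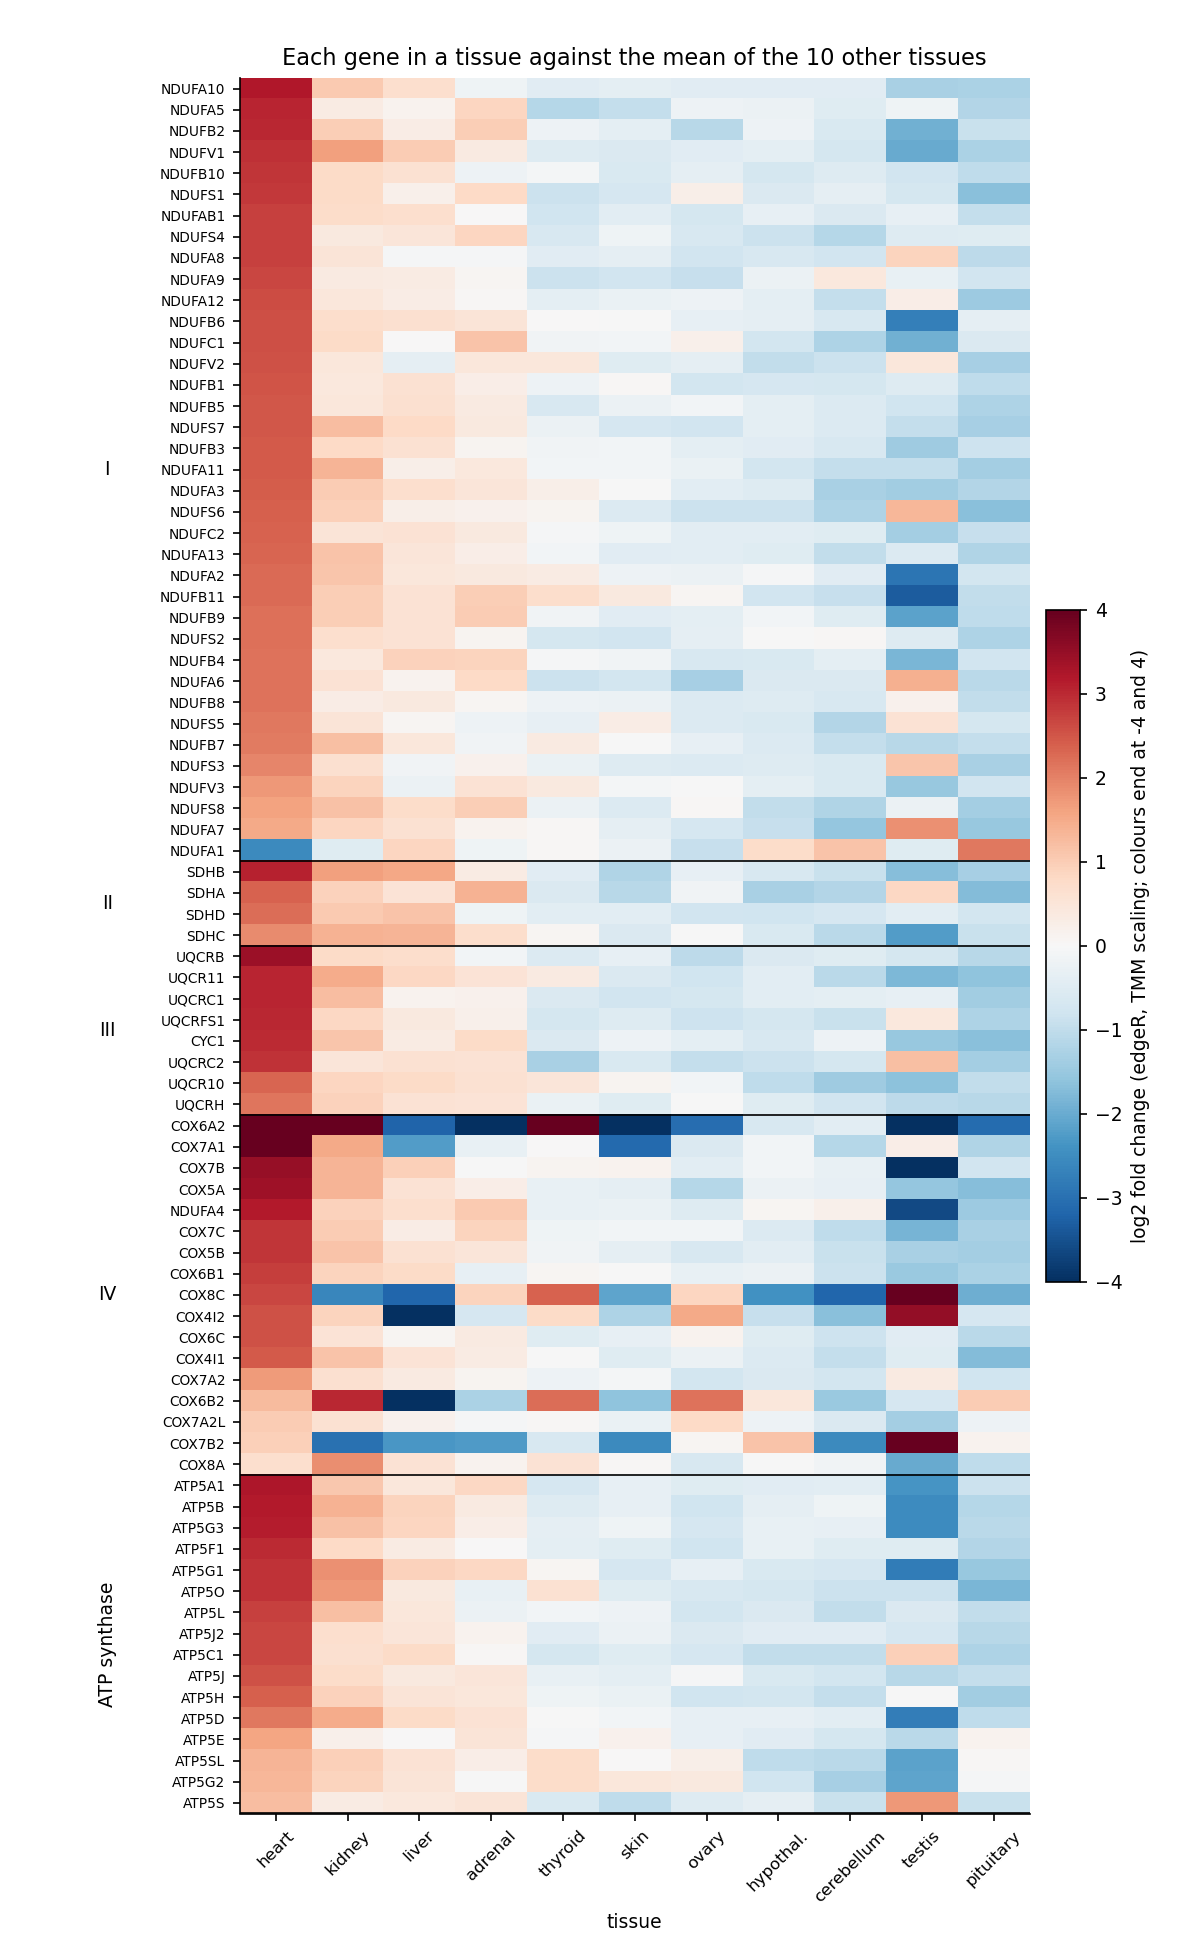
Log2 fold change of each of the 82 genes (down the page, by complex) in each of 11 tissues against the mean of the 10 others, with colours ending at -4 and 4. In heart every gene but NDUFA1 is red, COX8A palest at 0.68, and the testis and pituitary columns are mostly blue. Total count scaling moves liver's members' median from positive to negative, to -0.35.

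Kidney had 31 members higher and 1 lower, against 16.5% of all genes called higher, with a members' median of 0.90 and an all-gene median of -0.11. Complex II had 3 of its 4 genes called, complex IV 9 of 17, complex V 7 of 16, complex I 9 of 37 and complex III 3 of 8. COX8A had 514 to 934 CPM in kidney with a median of 668, above every other library of the series, where the highest was 496 CPM in heart. Its log2 fold change was 1.85 (SE 0.05, FDR 1.28e-102). ATP5O, the stalk subunit that carries oligomycin sensitivity, was at 1.75 (SE 0.05, FDR 7.84e-100).

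Adrenal gland and liver had few calls, and the gene with the highest fold change in either was from complex II. In adrenal gland 4 members were higher and 1, COX6B2, was lower, against 11.9% of all genes called higher. SDHA had 701, 931 and 1022 CPM there (lowest, median and highest of 24) and was higher by 1.40 (SE 0.04, FDR 3.97e-97). The other 3 were NDUFC1 (1.14), NDUFA4 (1.06) and NDUFB9 (1.00). With total counts as the scaling 7 members were higher in adrenal gland, and 2 with median-of-ratios factors. Shares of all genes called with these scalings are not set beside the 2 counts.

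In liver 4 members were higher and 3 lower, against 17.8% of all genes called higher. The 4 were SDHB at 1.53 (SE 0.04, FDR 1.27e-99), SDHC, which anchors complex II in the membrane, at 1.35, SDHD, the other anchor, at 1.14, and NDUFV1, the NADH-binding subunit, at 1.00. The liver members' median was 0.52, but with total counts as the scaling it was -0.35, 0 members were higher and 6 lower. All genes then had a median of -0.99, against -0.14 before, so the members stood 0.64 above all genes with total counts and 0.66 above them with TMM.

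Scaling by total counts moved the all-gene median of other tissues too, to -0.46 in heart, -0.51 in testis and 0.31 in pituitary. The members less all genes stood at 2.71 and 2.71 in heart, -0.75 and -0.75 in testis and -1.07 and -1.07 in pituitary with total counts and with TMM.

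In pituitary 48 of 82 members were lower and 2 higher, against 13.2% of all genes called lower, at a members' median of -1.10. Complex III had 7 of 8 genes lower, complex I had 21 of 37, complex V 9 of 16, complex IV 9 of 17 and complex II 2 of 4. COX4I1, the ubiquitous regulatory subunit of complex IV, had 115, 141 and 183 CPM in pituitary, and its log2 fold change was -1.74 (SE 0.07, FDR 3.15e-62). Lowest among the called genes were ATP5O at -1.82 (SE 0.06, FDR 5.87e-76), COX4I1, and SDHA at -1.73 (SE 0.05, FDR 2.80e-90). With total counts as the scaling 16 members were lower in pituitary and 47 in testis. No share of all genes called with that scaling is set beside these counts. The all-gene median then was 0.31 in pituitary and -0.51 in testis. The members less all genes stood at -1.07 and -0.75, as with TMM.

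Cerebellum had 17 members lower and 1 higher, against 23.3% of all genes called lower, at a median of -0.71. The count of members lower did not exceed that share of all genes. With total counts 7 members were lower, and no share of all genes called with that scaling is set beside them. UQCR10, a small subunit of complex III, was at -1.43 (SE 0.06, FDR 1.00e-60). NDUFA7, an accessory subunit of complex I, had 20.8 to 32.8 CPM in cerebellum and was at -1.54 (SE 0.08, FDR 4.12e-53).

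Testis was called in both directions, with 9 members higher and 37 lower. All genes there were called higher in 33.6% and lower in 32.4%, and the members' median was -0.83. Among the lower genes were subunits of complexes I and IV. COX7B had 3.97 to 8.62 CPM in testis and 80.1 CPM or more in every other library, at a log2 fold change of -4.43 (SE 0.12, FDR 4.55e-100). NDUFA4 had 16.8 to 25.9 CPM, against 109 CPM or more elsewhere, at -3.61 (SE 0.10, FDR 3.81e-99). NDUFB11, a membrane-arm accessory subunit of complex I, had 5.14 to 7.34 CPM, against 33.1 CPM or more elsewhere, at -3.33 (SE 0.11, FDR 3.04e-84).

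Other subunits of the same complexes were higher in testis. NDUFA7 had 143 to 179 CPM, at a log2 fold change of 1.83 (SE 0.07, FDR 1.55e-66). NDUFA6, also accessory, was at 1.43 (SE 0.06, FDR 3.21e-58). Core protein UQCRC2 of complex III was at 1.21 (SE 0.05, FDR 1.74e-62), and NDUFS6 and NDUFS3 of complex I were at 1.32 and 1.10. In complex II the subunits parted: SDHA had 423 to 501 CPM and was at 0.83, below the fold limit, while SDHB was at -1.72 and SDHC at -2.23.

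The other 4 tissues had few calls. In skin 0 members were higher and 7 lower, against 36.8% of all genes called in either direction, and the 7 were COX6A2, COX7A1, COX6B2, COX4I2, SDHB, SDHA and ATP5S. In hypothalamus, ovary and thyroid together, 15 of 246 gene-by-tissue tests were called in either direction, against 31.4% for all genes. Ovary had 2 higher and 4 lower, thyroid 3 higher and 2 lower, and hypothalamus 1 higher and 3 lower. Among these, SDHA was lower in hypothalamus at -1.30 (SE 0.05, FDR 2.78e-72) and UQCRC2 was lower in thyroid at -1.28 (SE 0.05, FDR 4.02e-68). In ovary the lowest called gene was NDUFA6 at -1.33 (SE 0.09, FDR 3.98e-36). The fitted values of COX6A2 in adrenal gland, ovary and pituitary and of COX8C in cerebellum and hypothalamus were lower than those of any other member there, but rested on few or 0 counts and did not pass the test.

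Of the 82 genes COX6A2 and COX7A1, both of complex IV, had the widest ranges of tissue means. COX6A2 is known in mammals as the isoform of heart and skeletal muscle. It had 473 to 1255 CPM in heart with a median of 573, 27.5 to 153 CPM in kidney with a median of 68.7, and 25.2 to 74.5 CPM in thyroid with a median of 34.9. Elsewhere its highest value was 1.15 CPM, and it had 0 counts in all 24 skin libraries. The 3 ranges overlapped only between kidney and thyroid. No row of the expression table carried the symbol of the partner gene COX6A1, so it is not among the 82 genes.

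Muscle markers were looked at beside the kidney and thyroid values. ACTC1, cardiac actin, reached 0.204 CPM in kidney and 0.164 CPM in thyroid, and MYL7, the atrial myosin light chain, reached 0.282 and 0.204 CPM. TNNI3, cardiac troponin I, had medians of 14.8 CPM in kidney and 13.9 CPM in thyroid, and TNNT1, slow skeletal troponin T, had 41.0 and 39.0 CPM. RYR2, the ryanodine receptor of heart muscle, had medians of 5.35 CPM in kidney and 30.9 CPM in thyroid. MYH4, a fast skeletal myosin, reached 0.288 CPM in kidney and 116 CPM in thyroid, and ACTA1, skeletal actin, reached 2.91 and 23.9 CPM. These genes were picked after their values were seen. As sums, the 6 heart markers reached 65.1 CPM in kidney and 68.0 CPM in thyroid (medians 22.8 and 44.4), and the 11 skeletal muscle markers reached 106 CPM in kidney and 216 CPM in thyroid (medians 53.6 and 60.6). Whether these moved with COX6A2 was not tested.

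COX7A1, the isoform of muscle, had 274 to 1035 CPM in heart with a median of 332, and 10.0 to 36.9 CPM in kidney. Its log2 fold change in heart was 6.87 (SE 0.07, FDR 1.40e-182), and it was -3.10 in skin (SE 0.14, FDR 7.43e-58). COX7A2, the form of other tissues, had its highest median in heart as well, at 287 CPM, and 90.8 to 194 CPM as medians elsewhere. The heart therefore had both. COX7A2L had its highest median in ovary, at 228 CPM, and its lowest in testis, at 36.2 CPM. NDUFA4L2, which is no member but resembles NDUFA4, had its highest median in skin, at 61.8 CPM, and its lowest in testis, at 5.14 CPM.

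Testis had isoforms of its own. COX7B2 had 35.7, 40.8 and 49.9 CPM in testis (lowest, median and highest of 12), and at most 0.973 CPM in any other library, with 0 counts in all 24 kidney libraries. COX8C had 9.47, 10.5 and 13.6 CPM in testis and at most 2.19 CPM elsewhere. Their partners went the other way there, COX7B to a median of 5.91 CPM and COX8A to a median of 44.1 CPM, the lowest of the 11 tissues for both. The groups of libraries did not overlap for any of the 4 genes.

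COX4I2, known as an isoform of lung and of oxygen-sensing cells, had 23, 27.9 and 34.5 CPM in testis. It had 11.6, 13.5 and 46.9 CPM in heart, a median of 12 CPM in ovary and of 0.161 CPM in liver. It was higher in testis by 3.51 (SE 0.11, FDR 5.22e-85) and in heart by 2.56 (SE 0.10, FDR 7.46e-72), and testis and heart libraries overlapped. COX4I1, its ubiquitous partner, was called higher in heart and kidney and lower in pituitary, with a median of 1207 CPM in heart and 192 CPM in testis.

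COX6B2 is known in mammals as a testis isoform, but its testis values were among the lower ones here, at 1.44 to 2.82 CPM. Its medians were 24.3 CPM in kidney, 17.5 CPM in ovary and 16 CPM in thyroid, where it was higher by 3.02 (SE 0.09), 2.16 (SE 0.12) and 2.25 (SE 0.10), with FDRs of 1.45e-87, 2.42e-42 and 9.88e-60. COX6B1, the ubiquitous partner, had medians from 55.3 CPM in testis to 817 CPM in heart.

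**Figure D3:**
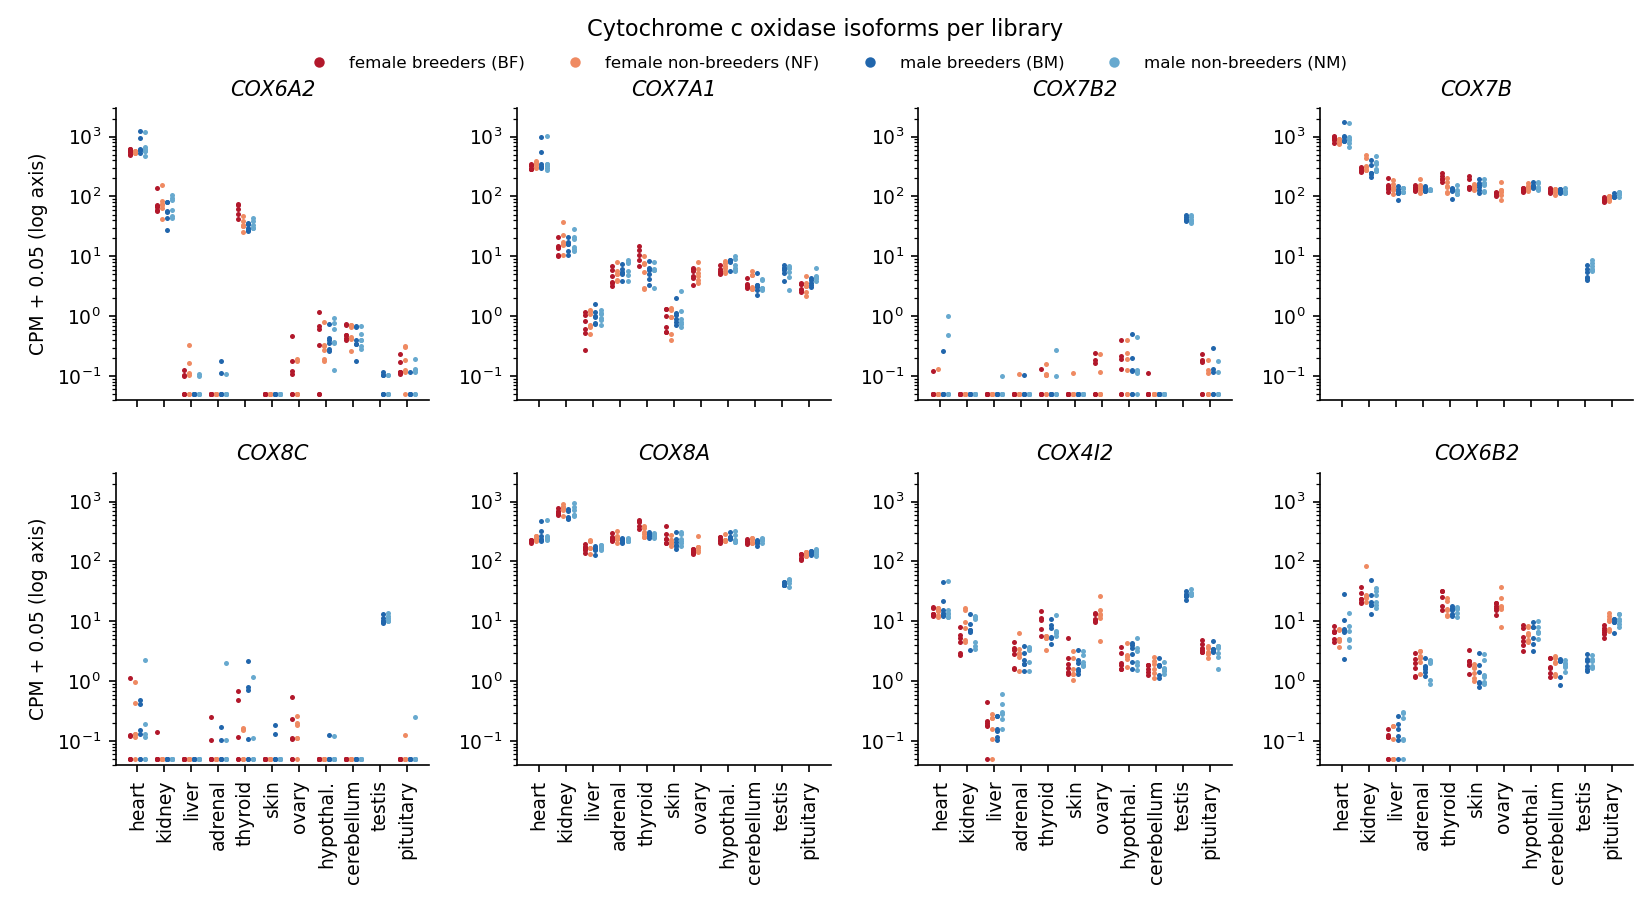
CPM plus 0.05 (log axis) of COX6A2, COX7A1, COX7B2, COX7B, COX8C, COX8A, COX4I2 and COX6B2 in each library, by tissue. COX7B2 and COX8C are at 9.47 CPM or more in testis and at 2.19 CPM or less elsewhere, while COX7B is lowest in testis at 3.97 to 8.62 CPM.

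The 3 genes for the same mature c-ring protein of ATP synthase, ATP5G1, ATP5G2 and ATP5G3, differed in the heart step. Their log2 fold changes in heart were 2.90, 1.34 and 3.14, and in testis -2.78, -2.09 and -2.51. Outside these tissues, ATP5G1 was called in kidney (1.82) and pituitary (-1.51), ATP5G2 in cerebellum (-1.33), and ATP5G3 in kidney (1.19) and pituitary (-1.07). Their mature proteins are alike, and reads shared between loci were discarded by the authors, so any of the 3 may have lost reads.

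Most of the genes followed one profile over the tissues. Across the 11 tissue means of log2(CPM + 1), the correlation of a member with the mean of the other members had a median of 0.903, and 41 of 82 were over 0.9. Without heart the median was 0.848 and 21 were over 0.9, and without heart and testis it was 0.858 and 27 were. These points share libraries and depth, no correlation of all genes is set beside them, and the values are a description. The 7 members under 0.5 were NDUFA1, COX7B2, COX8C, COX4I2, COX6B2, ATP5S and NDUFA7. In all, 73 of the 82 genes were highest in heart, 52 were lowest in testis and 12 in pituitary. The same counts of all genes are not set beside these. In the tissue contrasts 17.8% of all genes were called higher in heart, 32.4% lower in testis and 13.2% lower in pituitary.

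The difference between the highest and the lowest tissue mean, on the log2(CPM + 1) scale, had a median of 3.36. It was widest for COX6A2 (9.27) and COX7A1 (7.62). In complex I it was widest for NDUFB11 (4.94) and NDUFB6 (4.81), in complex III for UQCR11 (4.43) and CYC1, the cytochrome c1 itself (4.20), and in complex V for ATP5B (5.30) and ATP5G3 (5.22). The narrowest were COX7A2 (1.72) and COX7A2L (2.58) in complex IV, ATP5S (1.86) and ATP5E, the epsilon subunit (2.49), in complex V, and UQCRH, the hinge protein (2.97), and UQCRFS1, the Rieske protein (3.28), in complex III. In complex II it was 4.44 for SDHB, 3.83 for SDHC, 3.11 for SDHA and 2.52 for SDHD.

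In complex I the narrowest were NDUFA1 (1.07) and NDUFA2 (1.59), both with very few counts. NDUFA1 had at most 24 counts in any library and at most 3 in a heart library, with 16 of 24 hearts at 0. It went against the other members, with 0.744 to 1.72 CPM in pituitary, where it was called higher by 2.11 (SE 0.15, FDR 6.80e-33). NDUFA2 had at most 59 counts in a library. Both encode proteins that complex I needs, and how well these 2 rows measure their genes was not tested.

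ATP5S and ATP5SL, which are not subunits, differed from the ATP synthase genes in testis. ATP5S had 31.4 to 38.8 CPM in testis with a median of 36.8, above its heart median of 28.7, and was called higher there by 1.75. ATP5SL had 4.31 to 7.31 CPM in testis, below every other library, and its median in heart was 53.6 CPM.

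Other lists of the same machinery were counted in the same fits. In heart all 13 genes of the citric acid cycle, which feeds the chain, were higher, with a median of 2.75. Of 9 genes for ATP export and phosphate import 7 were higher (median 2.44), and of 17 for ubiquinone, cytochrome c and other feeders 13 were higher (1.74). Of 40 assembly factors, which build the complexes but do not remain in them, 18 were higher and 1 lower, with a median of 0.90. Of 12 genes that copy and express mitochondrial DNA 5 were higher (0.47), and of 8 regulators 3 were higher (0.21). All these counts stand against 17.8% of all genes called higher in heart.

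In testis calls went both ways in some lists. Citric acid cycle genes were lower for 9 of 13 (median -1.40), ATP export genes were higher for 3 and lower for 5 of 9 (-2.69), and assembly factors were higher for 4 and lower for 16 of 40 (-0.66), against 33.6% of all genes called higher and 32.4% lower. In kidney 6 of 13 citric acid cycle genes and 8 of 40 assembly factors were higher, against 16.5% of all genes. In pituitary 5 of 13 citric acid cycle genes and 6 of 40 assembly factors were lower, against 13.2%. The counts of assembly factors in kidney and pituitary were near these shares.

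Between groups of animals the 82 genes rarely passed the test. There were 38 comparisons of groups within tissues (BF with NF, BM with NM, BF with BM and NF with NM), each an edgeR quasi-likelihood contrast called at an FDR under 0.01 over 12439 to 13957 genes. Of the members, 76 to 80 passed the filter on low counts. COX7B2, COX8C, COX6A2 and NDUFA1 were most often left out, liver also lost COX4I2 and COX6B2, and pituitary and testis lost NDUFA2. Members were called in 2 comparisons, thyroid BF against BM and pituitary NF against NM.

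In the other 36 comparisons 0 members were called, against 0.248% of all genes. At an unadjusted p under 0.05 there were 338 of 2819 member tests, or 11.99%, against 9.35% of all gene tests. By DESeq2, members were called in 3 of these 36: 19 in thyroid BF against NF, 3 in pituitary BF against BM and 1 in liver NF against NM. The 0.248% comes from edgeR, and no share of all genes called by DESeq2 is set beside these 3 counts. The interaction of sex and status had 0 members called in 9 tissues, where all genes had 0.0% called, and 27 of 705 member tests had an unadjusted p under 0.05, against 5.73% of all gene tests.

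**Figure D4:**
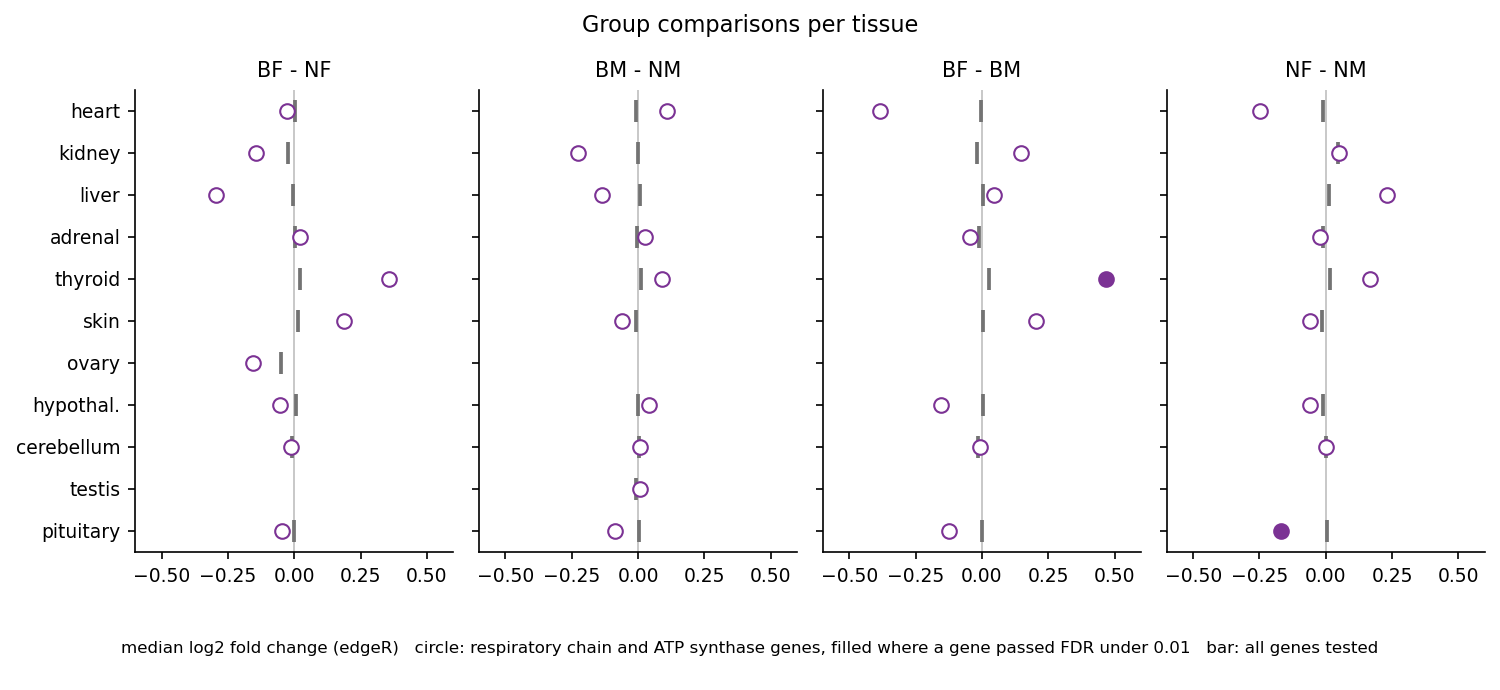
Median log2 fold change of the members (circles, filled where a member was called) and of all genes tested (bars) in each tissue, for BF against NF, BM against NM, BF against BM and NF against NM. The thyroid BF circles are highest, at 0.36 against NF and 0.47 against BM, and the heart BF-BM circle is lowest at -0.38.

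In thyroid the share of all counts was 1.28% ± 0.103 in BF (SD, n = 5), 1.09% ± 0.130 in NF (n = 6), 1.00% ± 0.0657 in BM (n = 6) and 0.986% ± 0.0822 in NM (n = 5). BF libraries ran from 1.15% to 1.42% and BM libraries from 0.878% to 1.07%, without overlap, while NF libraries reached 1.23%. Higher in BF than in BM were 36 of the 80 members tested and lower were 0, against 5.08% of all genes called higher and 6.17% called lower.

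By complex, complex I had 18 of 36 genes called (median log2 fold change 0.49), complex IV 8 of 16 (0.58), complex V 7 of 16 (0.39), complex III 3 of 8 (0.27) and complex II 0 of 4 (0.16). Within complex I, 15 of 29 accessory genes and 3 of 7 core genes were called. Members below 0 did not pass the test: UQCRC2 and NDUFS1, the largest core subunit of complex I, at -0.13, the ATP synthase alpha subunit ATP5A1 at -0.12, and NDUFA9 and SDHA at -0.10. COX8C was the other of the 6 members below 0. These genes were named after their values were seen.

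The called genes with the highest fold changes came from 3 complexes. COX6A2 had 71.4, 62.2, 42.2, 51.2 and 74.5 CPM in the 5 BF thyroids, against 26.6, 31.9 and 35.6 CPM in BM (lowest, median and highest of 6). The groups did not overlap, and the log2 fold change was 0.95 (SE 0.18, FDR 0.00181). NDUFB2, an accessory subunit of the membrane arm of complex I, had 76.9, 98.6, 64.8, 57.8 and 78.3 CPM in BF, against 33.5, 42.6 and 49.7 CPM in BM.

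ATP5G1 had 111, 115, 78.1, 80.7 and 114 CPM in BF, against 49.4, 59.0 and 68.5 CPM in BM, with a log2 fold change of 0.77 (SE 0.14, FDR 0.00161). COX7B had 245, 222, 198, 173 and 193 CPM in BF, against 89.6, 130 and 137 CPM in BM, at 0.74 (SE 0.16, FDR 0.00337). NDUFA7 was at 0.72 (SE 0.15, FDR 0.00258). None of these groups overlapped between BF and BM.

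The called genes with the lowest fold changes were NDUFAB1, which is also the mitochondrial acyl carrier protein, at 0.46 (SE 0.11, FDR 0.00549), ATP5E at 0.49 (SE 0.13, FDR 0.00888), and ATP5H, a stalk subunit, at 0.45 (SE 0.12, FDR 0.00980). NDUFS8 and NDUFV2, which hold iron-sulfur clusters of complex I, were at 0.43 (SE 0.11, FDR 0.00905) and 0.42 (SE 0.11, FDR 0.00844). NDUFAB1 had 70.8 to 89.7 CPM in BF and 51.0 to 62.1 CPM in BM.

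**Figure D5:**
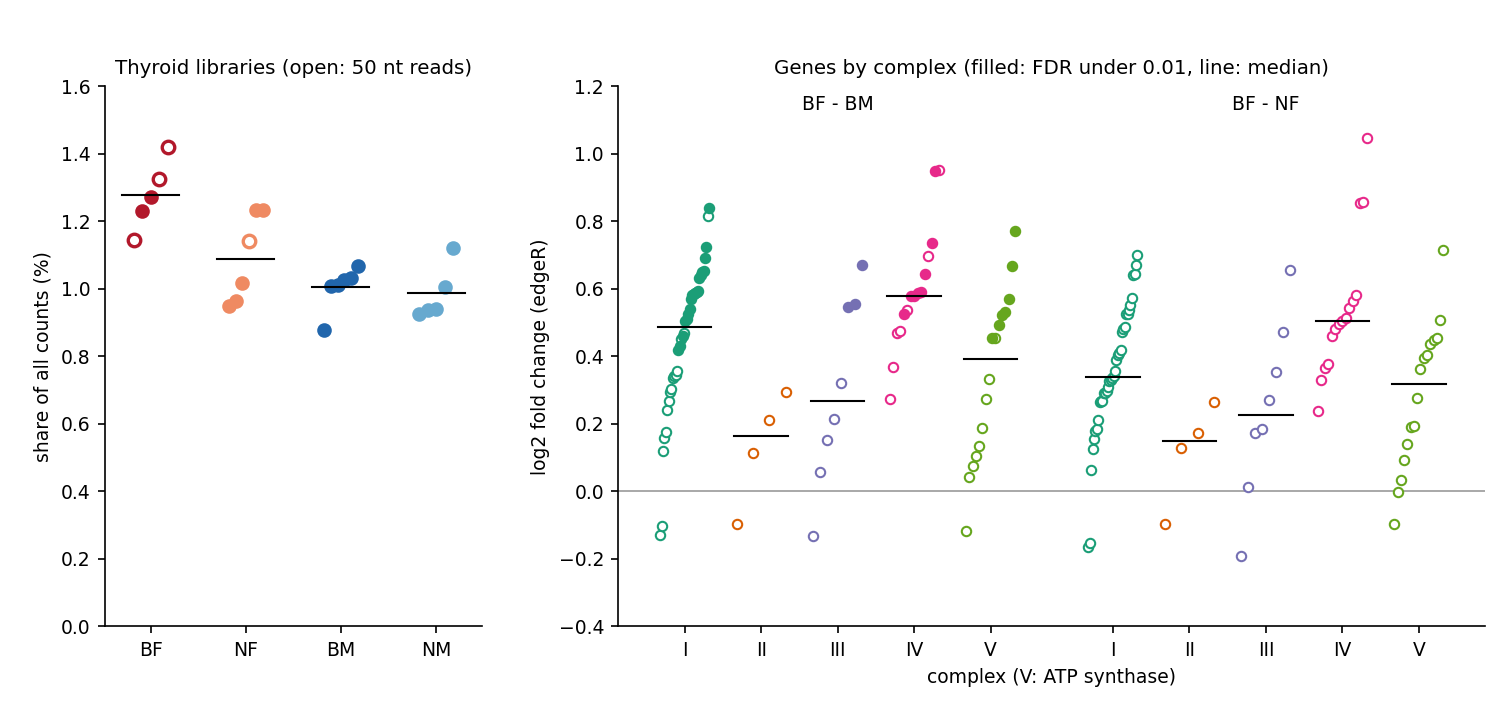
Left, share of all counts of the members in each thyroid library (percent) of BF, NF, BM and NM, with open points for reads of 50 nt. Right, log2 fold change of each member by complex for BF against BM and BF against NF, filled at an FDR under 0.01 and with lines at the medians, without COX8C; 36 points are filled, all in BF against BM.

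Against NF, which shares the BF libraries, 0 of 80 members were called in thyroid by edgeR. At an unadjusted p under 0.05 there were 56, against 28.8% of all genes, and 74 were above 0, with a median of 0.36 where all genes had 0.02. The smallest FDR was 0.0135, for ATP5G1, which had 54.4, 59.6 and 88.8 CPM in NF (lowest, median and highest of 6) and a log2 fold change of 0.72. COX6A2 had 25.2, 33.0 and 46.6 CPM in NF, at 0.85, and BF and NF overlapped. Without NF animal 08, 10 members were called, with no count of all genes set beside them. The median was 0.09 for BM against NM, and the interaction of sex and status had 0 members called and 18 at an unadjusted p under 0.05, against 17.2% of all genes, with a median of 0.29.

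Read length, depth and age differed between the thyroid groups, while the ranges of the marker sums overlapped. Reads of 50 nt made up 3 of 5 BF libraries, 1 of 6 NF libraries and 0 of 6 BM libraries, and 2 BM animals had the age of 0.74 years. The depth of the libraries was 11902191 to 15133258 counts in BF, 14403760 to 18967855 in NF and 16218903 to 19161648 in BM. Summed skeletal muscle markers (11 genes) were 62.5 to 152 CPM in BF, 35.7 to 216 CPM in NF and 50.9 to 134 CPM in BM, and adipocyte markers (8 genes) 1186 to 2782 CPM in BF, 534 to 2898 CPM in NF and 564 to 2815 CPM in BM. Follicular markers (10 genes) were 48484 to 92322 CPM in BF, 48062 to 87748 CPM in NF and 56867 to 128687 CPM in BM. Erythroid markers (3 genes) were 108 to 325 CPM in BF, 44.1 to 234 CPM in NF and 153 to 550 CPM in BM, and 4 of the 5 BF libraries were above every NF library. Lymphocyte markers (7 genes) were 7.14 to 13.8 CPM in BF, 7.81 to 35.1 CPM in NF and 5.95 to 20.8 CPM in BM. ACTA1, skeletal actin, was at 19.2 to 23.9 CPM in the 4 libraries of 50 nt and at 1.84 to 8.16 CPM in the others. The part of the age, marker and depth values in the result was not tested apart from the fits that follow.

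The count of 36 was not stable over these. It was 0 with read length as a covariate, 0 without the libraries of 50 nt and 0 without the males of 0.74 years, with members' medians of 0.38, 0.38 and 0.48, against 0.47. With the left-out NM library in the fit it was 4, at the same median of 0.47. Leaving out single libraries gave 5 without BF animal 02, 9 without BF 01 or BF 15, 14 without BM 22, 16 without BM 24 or BM 25, 18 without BM 20 and 20 without BM 21. It was 21 with BF and BM fitted alone. Calls of all genes fell too where the left-out library was added, from 1521 of 13520 to 405 of 13560. In the other fits, calls of all genes are not set beside these counts.

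Other lists were counted in BF against BM thyroid too, against the same 5.08% of all genes called higher and 6.17% lower. Assembly factors had 8 of 39 higher, with a median of 0.34, among them BCS1L, which inserts the Rieske protein into complex III, at 0.70, and COX17, which brings copper to complex IV, at 0.49. Citric acid cycle genes had 0 of 13 called and a median of 0.07. GPD2, the glycerol-3-phosphate dehydrogenase that feeds electrons to ubiquinone, was lower at -1.42 (SE 0.27, FDR 0.00193). Of mitochondrial ribosomal proteins 10 of 75 were higher and 2 lower, at a median of 0.25. Of cytosolic ribosomal proteins 2 of 82 were higher, 67 were above 0 and the median was 0.17. The ribosomal lists were added after the data were seen.

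In pituitary 4 of 78 members were lower in NF than in NM, against 0.337% of all genes called lower, and 73 were below 0, with a median of -0.17. Cytosolic ribosomal proteins had a median of -0.07 there, with 10 of 82 above 0, and mitochondrial ribosomal proteins also -0.07, with 14 of 75 above 0, and 0 of either list were called. COX7A2 had 84.3, 90.6 and 95.2 CPM in NF, against 96.3, 112 and 121 CPM in NM (lowest, median and highest of 6), at -0.29 (SE 0.05, FDR 0.00554). ATP5J2, the f subunit of ATP synthase, had 51.1, 55.6 and 61.2 CPM in NF, against 61.1, 70.7 and 76.0 CPM in NM, at -0.31 (SE 0.06, FDR 0.00802). The groups did not overlap for COX7A2. For ATP5J2 they met at 61.2 CPM in NF and 61.1 CPM in NM.

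NDUFB1 and NDUFS5, accessory subunits of complex I, were the other 2. NDUFB1 had 21.3, 23.9 and 27.7 CPM in NF, against 28.2, 29.5 and 34.1 CPM in NM, at -0.32 (SE 0.06, FDR 0.00816). NDUFS5 had 51.1, 57.1 and 61.4 CPM in NF, against 61.7, 68.0 and 71.9 CPM in NM, at -0.23 (SE 0.05, FDR 0.00911). Neither gene overlapped between the groups. Between breeders 0 of 78 members were called by edgeR, 37 had an unadjusted p under 0.05, against 20.4% of all genes, and the median was -0.12 for BF against BM.

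These 4 calls depended on single libraries. They came to 0 without the males of 0.74 years, and 0 without NF animals 03, 06, 08 or 13 or NM animals 18, 19, 23 or 28 in turn. There was 1 without BF 02 or BM 16, and there were 2 without BM 25 or NM 30. Any other single library left out gave 3 to 6. There was 1 with total counts or with NF and NM fitted alone. DESeq2 called 16 members. Calls of all genes in these alternative fits are not set beside any of these counts, so whether all genes changed alike is not shown. The share of all counts was 0.674% ± 0.0389 in BF, 0.709% ± 0.0274 in NF, 0.740% ± 0.0119 in BM (n = 5) and 0.776% ± 0.0378 in NM (SD, n = 6 in the others).

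In heart 0 members were called between groups by edgeR, and mean shares were higher in value in males. Shares were 5.18% ± 0.176 in BF, 5.19% ± 0.205 in NF, 5.90% ± 0.807 in BM and 5.64% ± 0.761 in NM (SD, n = 6 each). By edgeR 0 of 79 members were called for BF against BM, 54 had an unadjusted p under 0.05, against 21.9% of all genes, and the median was -0.38. For NF against NM 5 of 79 had an unadjusted p under 0.05, against 4.72% of all genes, at a median of -0.25. The lowest heart share, 4.69%, was that of NM animal 30. The highest male shares were 7.34% in BM animal 25, 6.96% in NM animal 28 and 6.35% in BM animal 21, where cytosolic ribosomal proteins took 4.27%, 4.32% and 2.91% of counts, against 2.19% to 2.79% in the other hearts. Without the libraries under 10000000 counts, which included BM 25 and NM 28, the median for BF against BM was -0.20 and 44 members had an unadjusted p under 0.05, and the median for NF against NM was -0.08 with 1 such member.

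In liver 40 of 76 members had an unadjusted p under 0.05 for BF against NF, against 19.1% of all genes, with a median of -0.29 and 0 called by edgeR. The shares were 0.965% ± 0.0368 in BF, 1.06% ± 0.151 in NF, 0.885% ± 0.0627 in BM and 0.956% ± 0.0804 in NM (SD, n = 6 each), and BF and NF overlapped. NF animals 09 and 11 had 1.26% and 1.21%, above the 0.877% to 1.08% of the other NF livers. In the same comparison cytosolic ribosomal proteins had a median of -0.31, with 2 of 82 above 0, and mitochondrial ribosomal proteins one of -0.26, with 3 of 75 above 0, and none of either list was called. For NF against NM there were 26 members at an unadjusted p under 0.05, against 21.4% of all genes, and a median of 0.23. There the cytosolic ribosomal proteins had a median of 0.48, with 79 of 82 above 0 and 3 called higher, and the mitochondrial ones had 0.23, with 73 of 75 above 0. Hypothalamus BF against BM had 21 of 78 members at an unadjusted p under 0.05, against 8.06% of all genes. Pituitary BM against NM had 17 of 78, against 3.72%, and skin BF against BM 11 of 78, against 5.60%. Kidney BF against NF went the other way, with 2 of 79 against 11.5%. By edgeR 0 members were called in these. In adrenal gland and cerebellum the members' medians stayed within 0.05 of 0 in each comparison.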

How the data were processed

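Poly(A) RNA of each tissue was made into unstranded single-end libraries with the TruSeq kit (v2). The authors aligned the reads to the guinea pig genome with STAR 2.4.1d, discarded reads that mapped to several loci and used HTSeq to count reads on the genes of their own assembled transcripts. The deposited values are raw counts of 16009 genes in 238 libraries, of which all but 1 were used. Gene symbols came from likeness to human transcripts, and 27 rows held a date in place of a symbol.

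From these counts, shares of all counts and counts per 1000000 counts of a library (CPM) were computed in Python 3.11.15. Tests used the quasi-likelihood F test of edgeR 4.0.16 in R 4.3.3 with TMM factors and the filterByExpr filter (minimum count 10, minimum total 15). P-values were adjusted by Benjamini-Hochberg over all genes of a tissue and comparison, and the SE was the log2 fold change divided by the square root of F. Group comparisons were fitted over the 4 groups of a tissue, and tissue contrasts over all libraries used. DESeq2 1.42.0, other scalings, no filter, read length, age, single libraries left out and, after the data were seen, libraries under 10000000 counts and the left-out thyroid library were alternatives. The scripts were tested on simulated data.

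The members and gene lists were chosen with earlier results of these data known. Genes were named by a rule: the isoform pairs of complex IV and the c-ring genes, the widest and narrowest ranges per complex, the extremes of each tissue contrast, and the called members with the 5 highest and 5 lowest fold changes, or all of them where under 20. Other members, such as UQCRB, ATP5O, UQCR10, NDUFA6, NDUFS3, NDUFS6, NDUFC1 and NDUFB9, were named after their values were seen, some in place of extremes by the rule that rested on few or 0 counts. Replicates are separate animals. A number in the labels marks 1 animal in all its tissues, so the numbers pair libraries across tissues. Over 9436 genes, deviations from the group means had a mean correlation of 0.0861 over 1053 pairs of the same animal. The mean over 5265 other pairs was -0.0165. Taking deviations from group means ties this value to the first, so it is no separate check. Counts per gene are not scaled by length, so levels were compared between samples and not between genes. No sequences were used here.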

Additional observations from a re-analysis of the deposited data

Results flagged for a closer look

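Over 88 groups of values, a library stood apart from the rest of its group in 5. Chance gives about 1 group in 20, so chance alone would give about as many. The share of all counts taken by the members was 1.224% in the hypothalamus of BM animal 24, against 1.036% to 1.071% in the other 5, and 1.205% in the hypothalamus of NF animal 09, against 0.9501% to 1.027%. In the thyroid of BM animal 25 it was 0.8779%, against 1.01% to 1.069%. COX7B, a subunit of complex IV, was at 89.61 CPM in the same library, against 121.9 to 136.5 CPM. ATP5G1, a c-ring gene of ATP synthase, was at 88.78 CPM in the thyroid of NF animal 08, against 54.36 to 63.04 CPM. These values came with no further test.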

How the results depend on the processing

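The members' median kept its sign in all 11 tissues under each scaling, filter and library choice tried except in liver, where total counts gave -0.3522. Total counts also gave 7 members higher in adrenal gland (2 with median-of-ratios factors), 7 lower in cerebellum, 1 lower in hypothalamus (1 with median-of-ratios factors), 0 higher and 6 lower in liver, 4 higher and 1 lower in ovary, and 16 lower in pituitary. With the animal as a replicate block, 30 members were higher in kidney, and 3 higher and 4 lower in ovary. The paired fit gave the same counts as the unpaired one in the other 9 tissues. Shares of all genes called in these fits are not set beside any of these counts.

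With the 10 most counted genes out of the denominator, shares were 1.854% in adrenal gland, 1.173% in liver, 0.8397% in pituitary and 0.6283% in testis. With TMM effective library sizes they were 1.555% in adrenal gland, 0.8203% in cerebellum, 6.629% in heart, 0.8665% in hypothalamus, 1.682% in liver, 0.8913% in ovary, 0.5855% in pituitary and 0.788% in testis.

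Calls of members between groups depended on the fit, and calls of all genes in these fits are not set beside them here. For thyroid BF against BM there were 21 members with the groups alone, 0 with read length as a covariate, 0 without the 50 nt libraries, 0 without the males of 0.74 years, 4 with the left-out thyroid library, and 5 (without BF 02) to 41 (without BM 16) with single libraries left out. For BF against NF, DESeq2 gave 19, total counts 2, and single libraries left out 0 to 10. For pituitary NF against NM, DESeq2 gave 16, total counts 1, the groups alone 1, leaving out the younger males 0, and single libraries left out 0 to 6. For BF against BM, DESeq2 gave 3 in pituitary and single libraries left out 0 to 1, and liver NF against NM had 1 by DESeq2. The 14 genes named from these calls kept their direction in every alternative. The causes were not tested. Counts were too few to compare groups for COX7B2 in 10 of 11 tissues, for COX8C and NDUFA1 in 9, and for COX6A2 in 8.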

Other observations

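Genes around the chain had isoform patterns of their own, and the genes named here were picked from the lists after their values were seen. SLC25A4, the heart and muscle form of the ADP/ATP carrier that exports ATP from mitochondria, averaged 6700 CPM in heart and 22.3 to 478 CPM in the other tissues, and its edgeR log2 fold change in heart was 6.22. SLC25A5, the more general form, was lower in value in heart, at 35.9 CPM, than in kidney, at 319 CPM. CKMT2, the sarcomeric mitochondrial creatine kinase, averaged 1906 CPM in heart and 49.7 CPM in testis, and at most 2.45 CPM elsewhere. GPD2, which passes electrons from glycerol 3-phosphate to ubiquinone, averaged 232 CPM in testis and 7.90 to 63.3 CPM elsewhere, at a log2 fold change of 3.66 in testis.

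Among regulators, PPARGC1A, a coactivator known to drive mitochondrial biogenesis, averaged 149 CPM in heart, 148 CPM in kidney and 80.8 CPM in cerebellum, and 0.174 CPM in testis. It did not follow the members in each tissue. Its log2 fold change was -1.65 in adrenal gland and 2.69 in thyroid, where the members' medians were 0.34 and -0.19. In cerebellum and hypothalamus it was 2.69 and 1.32, against members' medians of -0.71 and -0.51. PPARGC1A had the sign of the members' median in heart, kidney, liver, ovary, pituitary, skin and testis, at 2.67 in liver and -5.96 in ovary. ESRRG, a nuclear receptor that works with PPARGC1A, averaged 125 CPM in kidney, 92.1 CPM in heart, 74.9 CPM in cerebellum and 0.0626 CPM in liver. Of the 8 regulators 3 were called higher in heart. NRF1 and GABPB1 were not, at log2 fold changes of -0.35 and -0.03.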
